A study of Mus musculus with 55 samples.

Results

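The 9 genes described here encode proteins of the complement system: C1qa, C1qb and C1qc, C2, C3, C4b, the terminal components C6 and C7, and Cfb. They were taken by symbol from the 43432 genes of the deposited count table, each symbol matching 1 Ensembl identifier. This matching uses no measured value, but the genes were chosen with earlier results of these data known. Messenger RNA had been sequenced in 55 libraries of white fat from around the gonads, at 6 months of age, from C57BL/6 mice that were wild type (WT) or heterozygous for an Htt knock-in allele whose name gives the number of CAG repeats, from Q20, through Q80, Q92 and Q111, to Q140 and Q175. Htt is the gene mutated in Huntington's disease, and Q20 lies in the unexpanded range, so WT and Q20 both served as controls. The 7 genotypes and 2 sexes made 14 groups of 4 libraries, with 3 in WT females. WT and Q20 mice shared housing and every other line was housed with its own genotype, so housing and genotype cannot be told apart. The labels number the libraries of a group as replicates without naming animals, so p-values measure the spread between these libraries.

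Complement is a cascade of blood and tissue proteins that marks microbes, immune complexes and dying cells. C1q, built from the A, B and C chains, opens the classical pathway and acts through C4 and C2. Factor B (Cfb) and factor D drive the alternative pathway, and both routes cleave C3, whose fragments coat targets and attract leukocytes. C6 and C7 join the membrane attack complex that forms after C5 is cleaved. Factor D (Cfd, also called adipsin) is made by adipocytes, and macrophages are a main source of C1q in tissues.

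Total counts per library lay between 35094400 and 51363600, so sampling error is small for these genes, including C7 in females at about 1 to 7 CPM (counts scaled to sequencing depth). Of the libraries, 53 carried Xist and Y-linked transcripts that matched the labelled sex, whereas Q140 female 1 and Q140 male 4 carried the opposite pattern, and results are given with and without them. Htt itself averaged 45.5 to 66.1 CPM over the genotypes, which does not tell the alleles apart. The 8 adipocyte markers, Cfd among them, were detected, with sums of 4307 to 46718 CPM. The 11 markers of epididymis and testis, which adjoin male gonadal fat, together reached 100 CPM or more in 13 libraries, all male. These included all 4 Q175 males, at 497 to 2845 CPM, and no WT male (0.604 to 22.9 CPM). A further fit left out these 13 libraries and the 2 Q140 libraries, keeping 40 libraries (26 female, 14 male) in which Q175 is represented by its females alone.

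All 9 genes passed the filter on low counts and were well expressed. On the length-adjusted FPKM scale, C3 had the highest mean level over the 55 libraries, at 371 ± 147 FPKM (SD), followed by C4b at 172 ± 80.9 FPKM. C1qb (112 ± 45.8), C1qa (109 ± 39.7), C2 (89.1 ± 31.3), C1qc (87.2 ± 33.3) and Cfb (84.6 ± 26.2 FPKM) lay close together, each within 1 SD of its neighbours in this order. C6 was lowest among the genes without a large sex difference, at 26.9 ± 12.0 FPKM. C7 had no common level: it averaged 1.13 ± 0.73 FPKM in 26 female libraries and 77.5 ± 42.6 FPKM in 27 male libraries.

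The largest contrast in the set was between the sexes. C7, C6, C4b, C2 and Cfb were higher in male fat, C3 was higher in female fat, and the 3 C1q chains did not pass the test (edgeR quasi-likelihood test over 21113 genes, Benjamini-Hochberg adjusted p under 0.05). Thus 6 of 9 genes were called, beside 46.3% of all genes tested (27.9% higher and 18.3% lower in males), so the count itself is not particular to complement genes. The median log2 difference, male minus female, was 0.29 over the 9 genes and 0.06 over all genes tested.

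**Figure D1:**
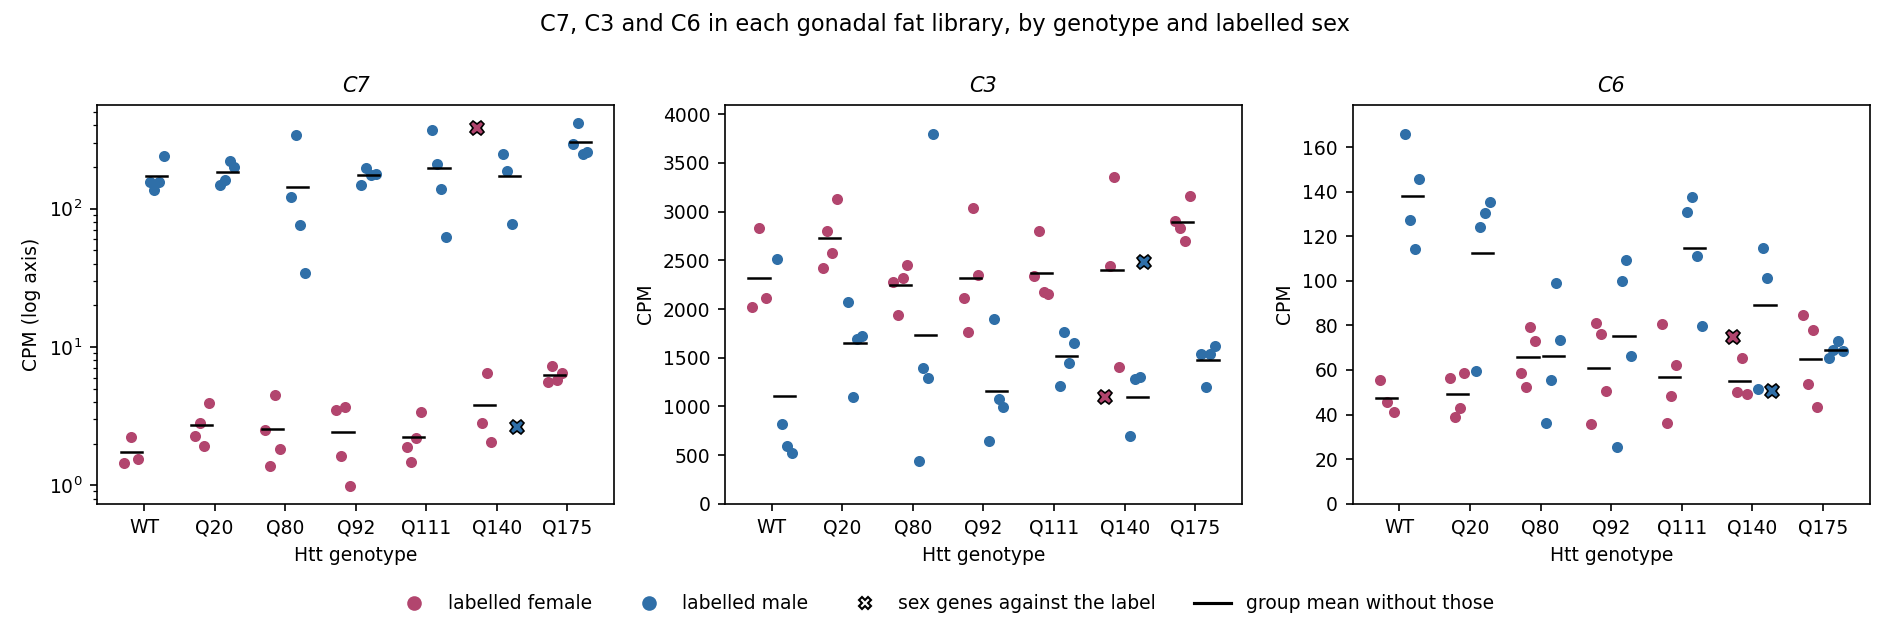
Levels of C7 (log axis), C3 and C6 in CPM in each library, by Htt genotype, with labelled females in red and labelled males in blue. Crosses are the 2 Q140 libraries whose sex genes go against their label, and bars are group means without them. Apart from the crosses, all male points of C7 lie above all female points. Most C3 points of males lie below those of females, and the C6 sexes are apart in WT and together in Q80 and Q175.

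C7, which binds the C5b-C6 complex and anchors it to membranes, was low in females and abundant in males. In WT females it had 1.44, 2.22 and 1.55 CPM, and in WT males 156, 137, 155 and 239.6 CPM. In Q175 females the values were 5.61, 7.3, 5.8 and 6.5 CPM, and in Q175 males 292, 419, 251 and 259 CPM. Over the 53 libraries that match their label, females ranged from 0.993 to 7.3 CPM with a median of 2.4 (n = 26), and males from 34.3 to 419 CPM with a median of 178 (n = 27). The ranges did not overlap: 27 of 27 males lay above every female, and the same held in each of the 7 genotypes. The lowest males were in Q80, whose 4 libraries had 122, 343, 76.1 and 34.3 CPM. The ratio of male to female means was 61.6 over the 53 libraries and 45.6 to 98.9 within genotypes, highest in WT and lowest in Q140.

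The log2 difference of C7 was 6.03 ± 0.24 (SE) without the 2 Q140 libraries (adjusted p = 3.00e-23, beside 49.3% of all genes called in that fit), 5.30 ± 0.42 with all 55, and 6.11 ± 0.26 without the libraries with high epididymal and testicular markers as well. The 14 males without those markers had 34.3 to 373 CPM, still above every female. The 2 libraries at odds with their label followed their sex genes, with 381 CPM in Q140 female 1 and 2.66 CPM in Q140 male 4.

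C6, the component that precedes C7 in the complex and lies on chromosome 15 with it, also had a higher mean in males in 7 of 7 genotypes, but the sexes were free of overlap in WT and Q20 only. WT females had 55.3, 45.4 and 41.0 CPM, against 166, 127, 114 and 146 CPM in WT males, without overlap. In Q175 the values were 84.6, 53.7, 77.9 and 43.4 CPM in females and 65.4, 69.1, 73.2 and 68.3 CPM in males, and the male values lay within the female range. Male over female ratios of the means were 2.93 in WT, 2.29 in Q20, 2.02 in Q111 and 1.62 in Q140, but 1.24 in Q92, 1.06 in Q175 and 1.0 in Q80. Over all genotypes the log2 difference was 0.65 ± 0.12 (adjusted p = 4.60e-05). Without the libraries with high epididymal and testicular markers and the 2 Q140 libraries it was 1.14 ± 0.13 (adjusted p = 2.71e-08). No Q175 male is left in that fit, so Q175 gives no sex difference to it.

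C3, the protein on which all complement routes converge, ran the other way. WT females had 2018, 2833 and 2113 CPM, while WT males had 2515, 817, 596 and 518 CPM. Q175 females had 2902, 2834, 2701 and 3156 CPM and Q175 males 1540.4, 1199.8, 1533 and 1615 CPM. In Q175 the sexes did not overlap, and in WT 1 male lay among the females. Over the 53 libraries, females had 2478 ± 465 CPM (n = 26) and males 1401 ± 689.8 CPM (n = 27), and 15 of 27 males lay below every female. A single Q80 male, at 3796 CPM, was above every female. The male mean was lower in 7 of 7 genotypes, without overlap in Q20, Q111, Q140 and Q175. The log2 difference was −0.76 ± 0.16 (adjusted p = 0.000132), and −0.67 ± 0.17 without the 13 and the 2 libraries (adjusted p = 0.00265). Mesothelial markers, which mark the covering layer of the fat pad, were also lower in males for 5 of 8 genes. Their sum was 94.5 to 661 CPM in females and 46.8 to 548 CPM in males, and the part of these cells in the C3 difference was not tested.

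C4b, C2 and Cfb, which lie in the major histocompatibility complex on chromosome 17 and supply the C3 convertases, were all called higher in males over the genotypes together. C4b had 202 to 1228 CPM in females (median 585, n = 26) and 165 to 1720.1 CPM in males (median 958, n = 27). The ranges overlapped, with 3 males above every female, and the male mean was higher in 7 of 7 genotypes by 1.14 to 2.01 times, with no genotype free of overlap. Its log2 difference was 0.54 ± 0.15 (adjusted p = 0.00357). C4b has a near-identical copy, C4a, counted at 1.75 CPM in females and 2.33 CPM in males, and how reads were divided between them is uncertain.

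C2, the protease that C4b carries, had 117 to 286 CPM in females (median 188) and 73.2 to 417 CPM in males (median 251). The male range extended beyond the female range at both ends, with 11 males above every female and 2 below. The male mean was higher in 5 of 7 genotypes and lower in 2, at 0.916 to 2.07 times the female mean. WT and Q111 were the genotypes in which the sexes did not overlap. The log2 difference was 0.41 ± 0.12 (adjusted p = 0.00447). Cfb had 107 to 245 CPM in females (median 172) and 54.5 to 391 CPM in males (median 214), with overlap in 6 of 7 genotypes. Its log2 difference of 0.29 ± 0.11 (adjusted p = 0.0326) was the smallest of the 6 calls. It did not pass with the lane code as a term (adjusted p = 0.0762), nor without any 1 of 7 libraries: WT female 1, WT male 1, Q20 female 2, Q20 male 4, Q92 males 2 and 3, and Q140 male 2 (adjusted p = 0.0503 to 0.06). An annotated read-through gene, Gm20547, with a mean of 256 counts per library, overlaps C2 and Cfb, and Zbtb12 overlaps C2 on the opposite strand, so reads of these genes may not be fully separated.

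C1qa, C1qb and C1qc, which lie side by side on chromosome 4, differed little between the sexes. C1qa averaged 105 ± 28.8 CPM in females and 119 ± 44.8 CPM in males, C1qb 109.6 ± 33.3 and 130.0 ± 53.6 CPM, and C1qc 96.9 ± 27.1 and 109.8 ± 43.3 CPM (SD, n = 26 and 27). The sexes overlapped in each genotype. The log2 differences were 0.15 ± 0.12, 0.22 ± 0.12 and 0.16 ± 0.12, with adjusted p = 0.294, 0.139 and 0.262. Without the 13 and the 2 libraries all 9 genes passed, the C1q chains at 0.37, 0.45 and 0.40 (adjusted p = 0.0133, 0.00556 and 0.00888), beside 38.4% of all genes. Macrophage markers were called higher in males for 3 of 15 genes, with sums of 462 to 1344 CPM in females and 434 to 1892 CPM in males. Lymphocyte markers were higher in males for 5 of 7 genes and progenitor markers lower for 5 of 10, and the part of these cells in the sex differences was not tested. In bulk tissue, fewer cells of a type and less RNA per cell cannot be told apart.

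**Figure D2:**
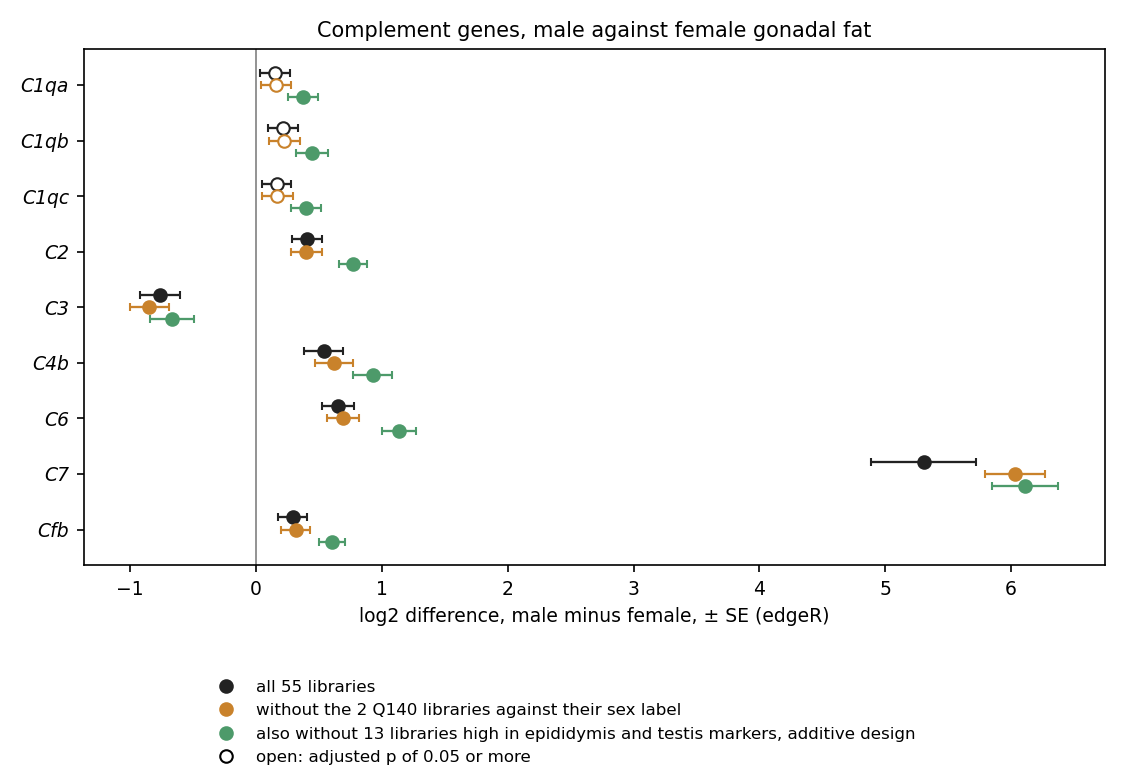
Log2 difference, male minus female, of each gene with its standard error (edgeR), from all 55 libraries (black), without the 2 Q140 libraries (orange) and also without the 13 libraries with high epididymal and testicular markers (green). Open points did not reach an adjusted p under 0.05. C7 lies between 5.30 and 6.11, C3 is the one gene below 0 in each of the 3 fits, and the C1q chains are called in the third fit.

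The sequences upstream of the genes that set the sexes apart most and of C1q chains were read from the RefSeq promoter table (build GRCm38.p6), which holds 5 of the 9 genes. Each window ends at the base before the first annotated start, and capitals mark the motifs found. The searched motifs were AGAACA, the half-site of the androgen and glucocorticoid receptors, the full palindromic element of these receptors, the oestrogen receptor element, the interferon-stimulated response element, GAGGAA (PU.1 core), TTGCNNAA (C/EBP) and TATAAA, each on both strands.
C7, chr15:5063774-5064023, minus strand: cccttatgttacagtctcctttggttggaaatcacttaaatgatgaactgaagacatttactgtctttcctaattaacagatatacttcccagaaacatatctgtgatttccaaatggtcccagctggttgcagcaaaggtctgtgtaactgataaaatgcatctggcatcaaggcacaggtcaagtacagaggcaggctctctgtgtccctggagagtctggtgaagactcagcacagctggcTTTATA
C3, chr17:57228137-57228386, minus strand: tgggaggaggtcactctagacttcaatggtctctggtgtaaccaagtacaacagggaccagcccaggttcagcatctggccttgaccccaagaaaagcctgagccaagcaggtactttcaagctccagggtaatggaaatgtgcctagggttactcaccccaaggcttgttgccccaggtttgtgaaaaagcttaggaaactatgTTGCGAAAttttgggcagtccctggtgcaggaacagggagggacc
C1qb, chr4:136886201-136886450, minus strand: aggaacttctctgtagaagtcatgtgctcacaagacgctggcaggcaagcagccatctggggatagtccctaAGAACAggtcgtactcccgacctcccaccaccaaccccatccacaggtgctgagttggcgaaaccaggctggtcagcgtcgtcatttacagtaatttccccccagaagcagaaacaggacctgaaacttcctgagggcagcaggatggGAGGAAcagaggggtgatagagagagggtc
C1qc, chr4:136893066-136893164, minus strand: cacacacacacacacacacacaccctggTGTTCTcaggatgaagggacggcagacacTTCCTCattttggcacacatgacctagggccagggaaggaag

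The C7 window held a TATAAA match on the opposite strand in its last 6 bases and no match to the hormone receptor elements searched. The C3 window held TTGCNNAA between 45 and 38 bases before its end. Both C1q windows held GAGGAA, at 30 to 25 bases in C1qb and, on the opposite strand, at 42 to 37 bases in C1qc, and both also held AGAACA. Of 32851 promoters cut to 250 bases, 12.37% held TATAAA, 9.564% TTGCNNAA, 23.25% GAGGAA and 16.08% AGAACA. At 99 bases, the length of the C1qc window, GAGGAA was found in 9.741% and AGAACA in 6.249%. These matches are letters in a window and do not show binding. The C6 window, of 215 bases, held none of the motifs.

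Of 45 other complement genes listed, 40 passed the filter, and in the sex comparison 11 were higher in males and 8 lower, beside 27.9% and 18.3% of all genes tested, so this count too lies near the background. Of 10 receptors 6 were higher and 1 lower. Among these, Itgax, a chain of complement receptor 4 that is also on the macrophage list, was higher by 1.33 ± 0.21 on the log2 scale, Vsig4, a macrophage receptor for C3 fragments, by 1.05 ± 0.22, and Itgb2, the shared beta chain, by 0.64 ± 0.15. Of 13 regulators 4 were higher and 3 lower: Cd55, which dissociates the C3 convertases on cell surfaces, had a log2 difference of −0.71 ± 0.12. Its copy Cd55b (5.43 ± 0.82) and Clu (0.85 ± 0.18) were higher in males. Cd55b reached 49.1 CPM in the males with high epididymal and testicular markers and at most 1.22 CPM in other males, and Clu 1167 against 164 CPM. Without the 13 and the 2 libraries both were still called higher in males, Cd55b at 3.43 (adjusted p = 0.000979) and Clu at 0.38 (adjusted p = 0.0417). Of the classical and lectin genes 1 of 10 was higher and 2 lower, with Masp2, a protease of the lectin pathway, at −1.06 ± 0.20 and Colec12, a membrane collectin, at −0.67 ± 0.12. Cfd, the most abundant complement RNA of this fat, was not called, at 10459 ± 1714 CPM in females and 9110 ± 4137 CPM in males.

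The second comparison was between the longest repeat and WT, whose libraries fall in 1 block of library numbers. No complement gene of the 9 passed the edgeR test in all 55 libraries, beside 10.4% of all genes (3.34% higher, 7.10% lower), although 8 of the 9 log2 differences were positive. C1qc and C4b had an unadjusted p under 0.05. DESeq2 called 0, and limma voom with quality weights called 5, beside 39.9% of all genes. The 9 genes had a median log2 difference of 0.38, against 0.01 for all genes tested. On the FPKM scale the median of all genes moved to 0.17, and 2027 of 2361 called genes were higher, whereas 1498 of 2204 were lower in the count test. Relative values therefore depend on the scale.

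**Figure D3:**
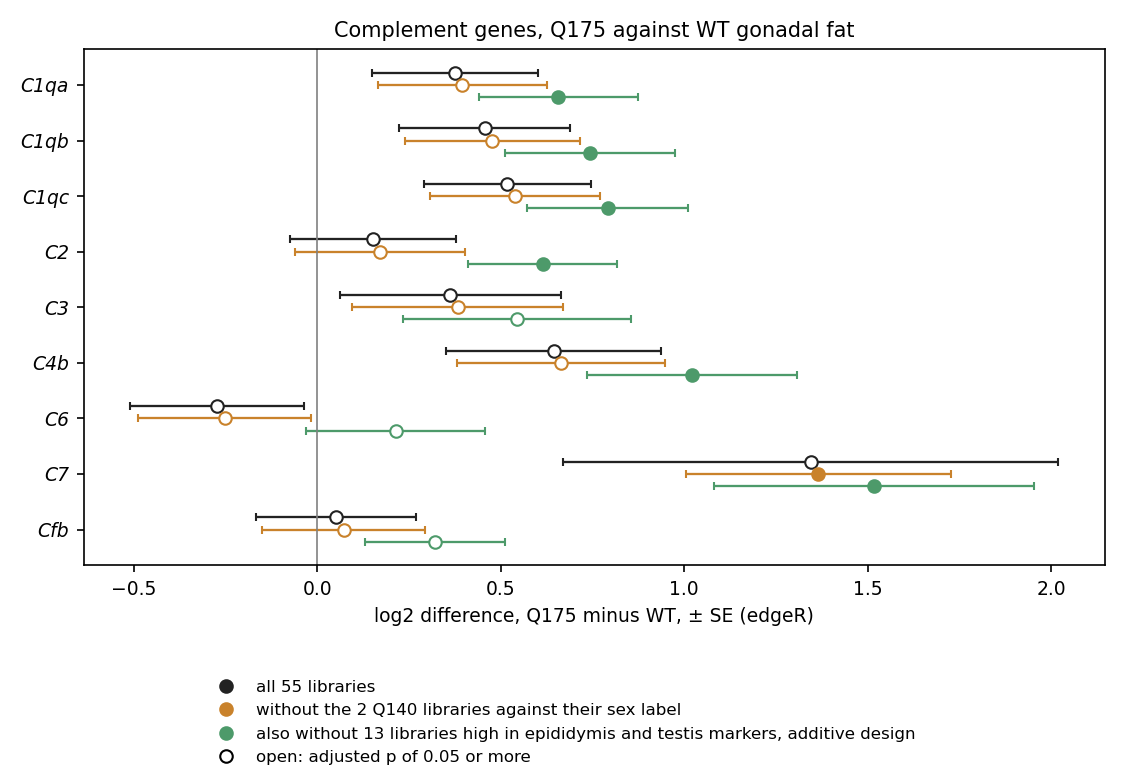
Log2 difference, Q175 minus WT, of each gene with its standard error (edgeR), in the same 3 sets of libraries as the plot of male against female. Open points did not reach an adjusted p under 0.05. No gene is called with all libraries, C7 is called without the 2 Q140 libraries, and 6 are called in the third set, where Q175 is represented by its females alone.

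C7 had the largest difference. Its mean was 1.74 ± 0.42 CPM in WT females (n = 3) and 6.30 ± 0.77 CPM in Q175 females (n = 4), and 172 ± 46.0 CPM in WT males and 305 ± 77.7 CPM in Q175 males (n = 4 each). In both sexes every Q175 library lay above every WT library. The log2 difference was 1.34 ± 0.67 with all libraries (adjusted p = 0.208). Without the 2 Q140 libraries, whose values widen the estimated spread of this gene, it was 1.37 ± 0.36 and passed (adjusted p = 0.0125), beside 10.2% of all genes. Within females it was 1.88 ± 0.56 (adjusted p = 0.113) and within males 0.85 ± 0.47 (adjusted p = 0.309) in those 53 libraries. In a fit of the WT and Q175 libraries alone both sexes passed, at 1.88 in females (adjusted p = 0.00482, beside 8.83% of all genes) and 0.86 in males (adjusted p = 0.00821, beside 23.4%), and the difference between the sexes did not (adjusted p = 0.216).

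C4b was the next largest. WT females had 579, 564 and 289.7 CPM and WT males 1196, 729, 958 and 538 CPM. Q175 females had 874, 960.4, 1228 and 659 CPM and Q175 males 1030.2, 1041, 1106 and 1109.7 CPM. Each Q175 female lay above each WT female, whereas the 4 Q175 males lay close together within the WT male range. The log2 difference was 0.64 ± 0.29 (adjusted p = 0.159), with 0.96 ± 0.44 in females (where 0.199% of all genes were called) and 0.33 ± 0.40 in males, neither of which passed. With the 13 and the 2 libraries left out it was 1.02 ± 0.29 (adjusted p = 0.0162), a value that rests on Q175 females but is not the test within females. Within females of the 53 libraries the edgeR difference was 0.98 ± 0.42 and did not pass (adjusted p = 0.294).

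The C1q chains had positive differences of similar size. C1qc had 66.1, 87.5 and 45.5 CPM in WT females and 117, 124, 114 and 94.7 CPM in Q175 females, without overlap. In males the values were 123, 62, 95 and 62.2 CPM in WT and 112, 93.7, 103 and 105 CPM in Q175, all within the WT range. The log2 differences were 0.52 ± 0.23 for C1qc, 0.46 ± 0.23 for C1qb and 0.38 ± 0.23 for C1qa, with adjusted p = 0.142, 0.219 and 0.310. In the WT and Q175 libraries alone C1qb (0.48, adjusted p = 0.0287), C1qc (0.54, adjusted p = 0.0210), C4b (0.67, adjusted p = 0.0179) and C7 (1.37, adjusted p = 0.000272) passed, 4 of 9 beside 32.8% of all genes. Without the 13 and the 2 libraries C1qa, C1qb, C1qc, C2, C4b and C7 passed, 6 of 9 beside 12.6% of all genes. Within females of the 53 libraries none of the 9 passed the edgeR test (lowest adjusted p = 0.113, for C7). With all 55 libraries that comparison called 0.199% of all genes.

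Some macrophage markers were also higher in Q175. With the sexes averaged, 7 of 15 markers were called higher. The sum of the markers was 462 to 1384 CPM in WT (median 739.6) and 1186 to 1344 CPM in Q175 (median 1261), with no marker at 0 throughout. In females, WT had 462 to 798 CPM and Q175 1220 to 1344 CPM. In males, WT had 633 to 1384 CPM and Q175 1186 to 1336 CPM, within the WT range. The summed C1q chains were 32.7% ± 2.97 of the macrophage sum in WT (n = 7) and 26.9% ± 2.13 in Q175 (n = 8). The Q175 mean was the lowest of the genotypes, and this ratio was not tested. Progenitor markers were called higher for 5 of 10 genes, with sums of 1953 to 4305 CPM in WT and 3362 to 5403 CPM in Q175. The part of these cells in the C1q, C4b and C7 values was not tested.

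C6 was the one gene with a negative difference, −0.27 ± 0.24 (adjusted p = 0.517). Its sign turned to 0.15 without the 13 libraries and to 0.21 without the 13 and the 2, where Q175 is represented by its females alone. The sexes had differences of opposite sign. The 4 Q175 males, at 65.4 to 73.2 CPM, all lay below the 4 WT males, at 114 to 166 CPM, with a log2 difference of −1.0 ± 0.33 (edgeR adjusted p = 0.0864, beside 1.76% of all genes called in males). DESeq2 (adjusted p = 0.0375) and limma voom (adjusted p = 0.00437) called it. In females the difference was 0.46 ± 0.35, and the test of the difference between the sexes gave −1.46 ± 0.48 (adjusted p = 1.0). All 4 Q175 males are among the 13 libraries with high epididymal and testicular markers, and their adipocyte marker sum was 18375 to 24485 CPM against 32714 to 34315 CPM in WT males. The part of tissue composition in the C6 values was not tested. C3 (0.36 ± 0.30, adjusted p = 0.493), C2 (0.15, adjusted p = 0.745) and Cfb (0.05, adjusted p = 0.955) did not pass.

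**Figure D4:**
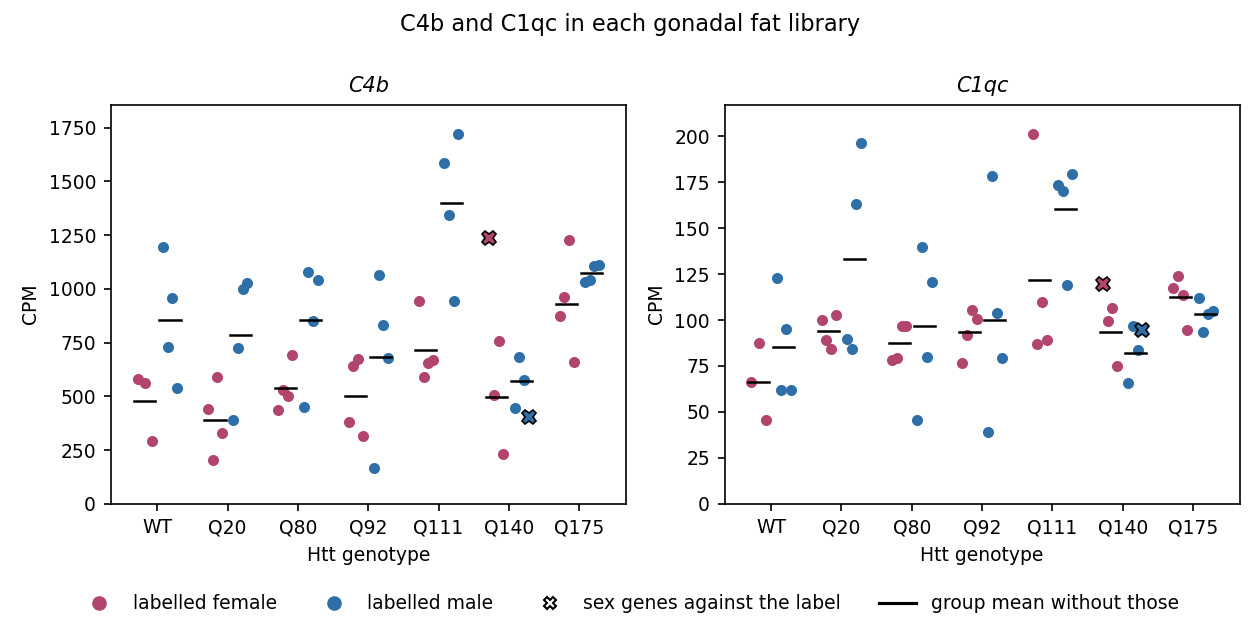
Levels of C4b and C1qc in CPM in each library, by Htt genotype, with labelled females in red, labelled males in blue, crosses for the 2 Q140 libraries against their sex label and bars for group means without them. C4b is highest in Q111 males, at 944 to 1720 CPM. Q175 libraries lie close together for C1qc, whereas for C4b the Q175 males do so and the Q175 females are spread more widely.

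Among the other complement genes, 5 of 40 were higher in Q175 than in WT and 0 lower, beside 3.34% and 7.10% of all genes tested. Among them were the regulators Serping1, the C1 inhibitor (log2 0.76 ± 0.20, adjusted p = 0.0114), and Cd55 (0.75 ± 0.23, adjusted p = 0.0254). Also higher were Itgam, the alpha chain of complement receptor 3 (1.22 ± 0.26, adjusted p = 0.00227), and Fcna, a ficolin of the lectin pathway (1.32 ± 0.38, adjusted p = 0.0193). Without the 13 and the 2 libraries these 4 differences were larger, at 0.87, 1.06, 1.41 and 1.99. No terminal (0 of 5) or alternative pathway gene (0 of 2) passed.

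Against Q20, the knock-in control, C4b was the single gene of 9 called higher in Q175, beside 14.2% of all genes (4.54% higher and 9.70% lower). Q20 females had 442, 202, 592 and 328 CPM of C4b and Q20 males 391, 726, 999 and 1027 CPM. The Q175 females lay above the Q20 females and the Q175 males, by a narrow margin, above the Q20 males. The log2 difference was 0.85 ± 0.28 (adjusted p = 0.0347), and 0.87 ± 0.27 without the 2 Q140 libraries (adjusted p = 0.0243). It did not pass with the lane code as a term (0.77, adjusted p = 0.0730), with the trend over transcript length removed (0.67, adjusted p = 0.147) or without any 1 of 6 libraries: Q175 female 3, Q175 male 3, Q20 females 2 and 4, and Q20 males 1 and 2 (adjusted p = 0.0514 to 0.0822). Q175 and Q20 also lie in different blocks of library numbers, apart from Q20 female 2, which is in neither block. C7 passed beside C4b without the 2 Q140 libraries (0.99 ± 0.34, adjusted p = 0.0411, with 14.7% of all genes called). The call of C4b alone stood without the 13 libraries (15.7% of all genes), and 2 genes were called without the 13 and the 2 (18.3%). With all libraries the other 7 genes had log2 differences of −0.16 to −0.04.

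Q20 and WT, which were housed together, did not differ by the edgeR test in any of the 9 genes, beside 0.753% of all genes. No Q20 library lies in the block of library numbers that holds WT, so block and genotype cannot be told apart here. Of the 9 genes 2 had an unadjusted p under 0.05, DESeq2 called 0, and limma voom 5, beside 9.59% of all genes. The largest values were for the C1q chains: C1qb at 0.61 ± 0.23 (adjusted p = 0.286), C1qc at 0.57 ± 0.23 (adjusted p = 0.317) and C1qa at 0.43 ± 0.23 (adjusted p = 0.542), higher in Q20. C1qc averaged 77.3 ± 26.1 CPM in WT (n = 7), 114 ± 42.3 CPM in Q20 (n = 8) and 108 ± 10.8 CPM in Q175 (n = 8). The mean of C1qc in Q175 was thus above that of WT and not above that of Q20, and neither difference passed the test.

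The lines between these extremes gave no calls among the 9 genes against Q20 (edgeR). The background was 0% of all genes for Q80, Q111 and Q140 and 6.11% for Q92. Log2 differences were −0.28 to 0.29 in Q80 and −0.38 to 0.08 in Q92, with 0 genes at an unadjusted p under 0.05 in either. DESeq2 called 0 in both, and limma voom 0 in Q80 and 1 in Q92, with the share of all genes called by these tools not given here. Q111 had the highest C4b, at 1056 ± 441 CPM (n = 8), against 588 ± 306 CPM in Q20. Its 4 males had 1587, 1345, 944 and 1720.1 CPM and its females 944, 590.3, 654 and 667 CPM. The log2 difference was 0.85 ± 0.28, the 1 gene of 9 at an unadjusted p under 0.05, and did not pass (adjusted p = 0.704, with voom calling 1 gene and DESeq2 0). Q111 also had the highest mean of C1qc, 141 ± 44.8 CPM. In Q140 the C7 difference of 2.33 ± 0.65 (adjusted p = 0.232) was 0.20 ± 0.36 without the 2 libraries at odds with their label. The other genes of Q140 lay between −0.34 and 0.12, and 1 gene was called by DESeq2 and 0 by voom.

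Over the 6 knock-in lines, the slope of log2 level per 100 repeats passed for none of the 9 genes with all libraries, beside 8.32% of all genes. At an unadjusted p under 0.05 there were 2 genes. DESeq2 called 2 and voom 1, with the share of all genes called by these tools not given here. C4b had 0.46 ± 0.17 (adjusted p = 0.0811) and C7 1.14 ± 0.39 (adjusted p = 0.0554), the latter 0.59 ± 0.20 without the 2 Q140 libraries (adjusted p = 0.0758, with 5.51% of all genes called). C4b did not climb in order of repeat length: the means were 588 CPM in Q20, then 696 (Q80), 593 (Q92), 1056 (Q111), 606 (Q140) and 1001 ± 174 CPM (Q175). Over Q20 to Q140 its slope was 0.29 (adjusted p = 0.832). Q175 is the only knock-in line in the block of library numbers shared with WT, so its repeat length and block cannot be told apart. No gene of the 9 passed the edgeR test of a sex difference in the slope, in Q92 against Q20 or in Q175 against WT, beside 0%, 3.83% and 0.0284% of all genes. At an unadjusted p under 0.05 these tests had 2, 0 and 1 of the 9 genes, DESeq2 called 0 in each, and voom 1, 2 and 0.

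Within groups, most of the 9 genes varied together from library to library. In the 53 libraries, log2 CPM deviations from the group means of C1qa and C1qc had Pearson's r = 0.988 and Spearman's rho = 0.971, and r = 0.983 without the 2 libraries farthest from the median. C1qa and C1qb had r = 0.982 (rho = 0.957), and the ratio of their FPKM levels was 1.02 ± 0.083 over the 55 libraries. C2 and Cfb, neighbours on chromosome 17, had r = 0.816 (rho = 0.682), which was 0.725 without the 2 farthest. This relation was strong in males (r = 0.938) and was not shown in females (r = 0.327, adjusted p = 0.139). C1qa and C4b had r = 0.768 (rho = 0.742). Of 36 pairs of genes 28 were positive with an adjusted permutation p under 0.05, in a family of 72 relations with 100000 resamples, and the smallest p the resamples can give is 1e-05. The other 8 pairs were those of C7, with r between −0.21 and 0.15. By sex, 13 pairs passed in females and 28 in males.

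**Figure D5:**
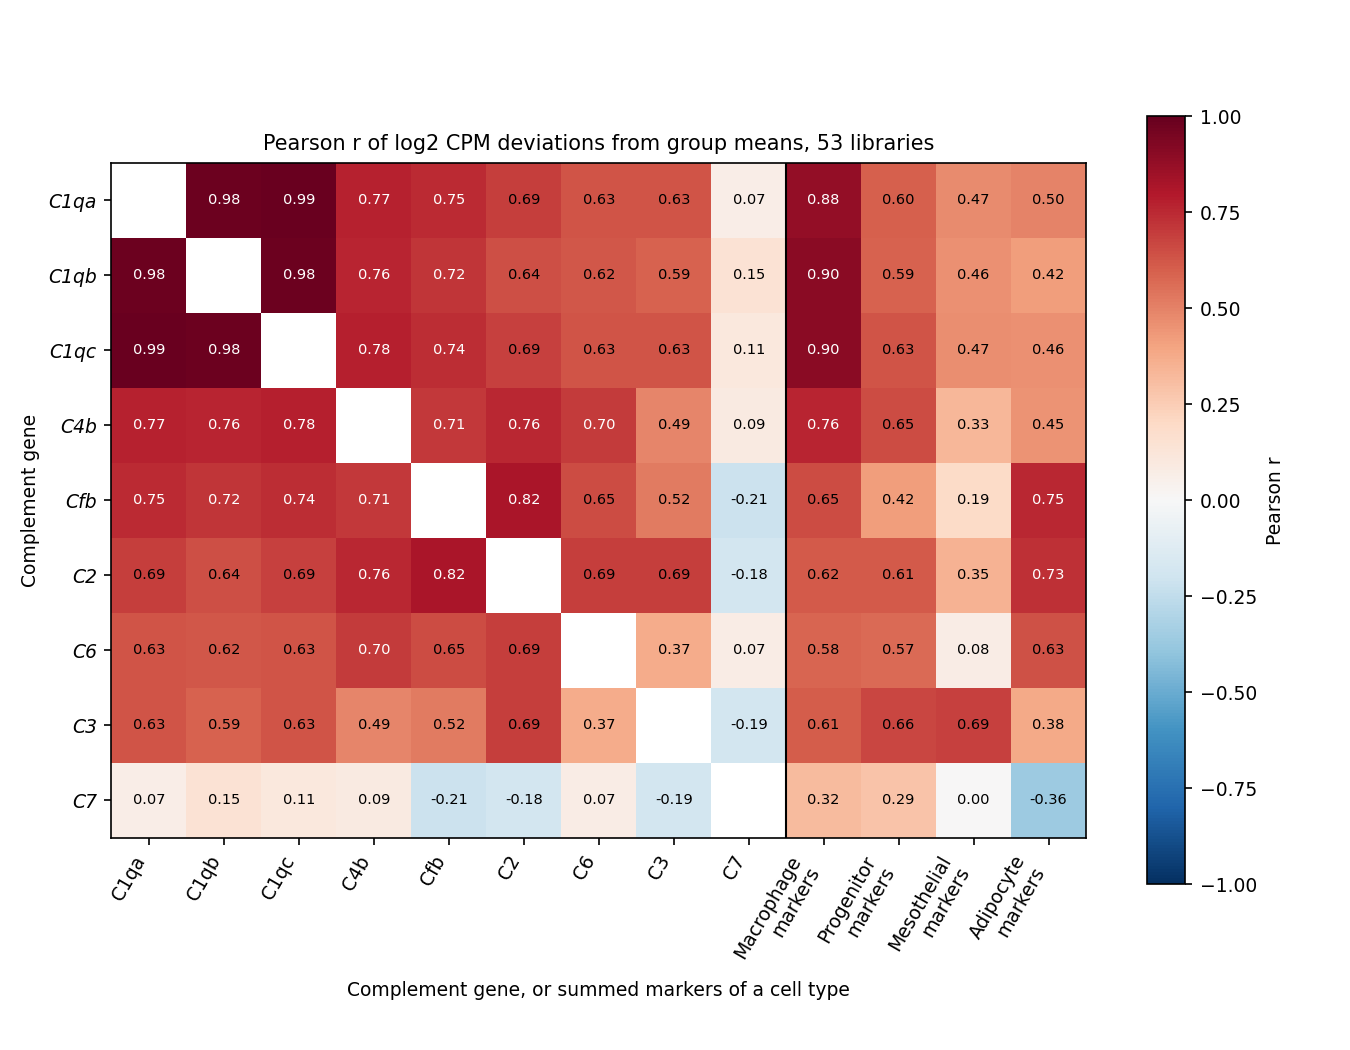
Pearson's r of log2 CPM deviations from group means over 53 libraries, for each pair of the 9 genes and for each gene with the summed markers of 4 cell types, on a colour scale from −1 to 1. The C1q chains form the block of highest values, and the C7 row stays near 0 against the other 8 genes.

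The C1q chains followed the macrophage markers, C1qa with r = 0.878 (rho = 0.81, and 0.821 without the 2 farthest libraries) and C1qb with r = 0.905, and C4b did so with r = 0.764. C3 followed the mesothelial markers with r = 0.686 (rho = 0.610, and 0.666 without the 2 farthest). In females that value was 0.676 but 0.389 without the 2 farthest libraries, so it rests on them, and in males it was 0.734. With the adipocyte sum, which includes the complement gene Cfd, 8 of 9 genes passed with a positive r in males and 0 in females. In females 2 of 9 passed with a negative r, and r lay between −0.58 and 0.26. The points of each relation share their library, and the part of tissue composition in these relations was not tested.

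Over all 55 libraries, the genes most alike in log2 deviations from the group means were ranked by Pearson's r among 13976 genes. C1qa was followed by C1qc, C1qb and Cfp, the gene of properdin, which stabilises the alternative C3 convertase, and the same 3 led without the 2 Q140 libraries. C3 was followed by Colec12 (0.868), Fbln1 (0.838), a matrix fibulin, and C1ra (0.822), a protease of C1, and these 3 also led in the 53 libraries. C4b was followed by Stab1 (0.880), a scavenger receptor of macrophages and sinusoidal endothelium, Pld2 (0.824) and Pld4 (0.817). In the 53 libraries Stab1 led again (0.898), with Sept8 (0.842) and C1qtnf1 (0.831) next. C6 was followed by Gpx7 (0.784), Sparc (0.777) and Serpina3n (0.773), and Gpx7 stayed first in the 53 libraries (0.813). Cfb was followed by Esyt1 (0.893), Anxa5 (0.888) and Slc6a13 (0.887), and in the 53 libraries by Lgals9 (0.917), Ctsb (0.911) and Naaa (0.904). C7 was followed by Sult1e1 (0.935), the oestrogen sulfotransferase, Col6a5 (0.876) and the Y-linked Eif2s3y (0.875), a result that rests on the 2 Q140 libraries. Without them the genes nearest C7 were Cpxm2 (0.786), Cpxm1 (0.766) and Sfrp1 (0.745).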

How the data were processed

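Libraries were grouped by the genotype and sex in their labels. The authors deposited an expected count (estimated count) per gene, not scaled, and FPKM values, which they scaled for gene length and depth. Per the labels, the Qiagen miRNeasy kit was used on frozen tissue, and Illumina libraries were made from an enriched fraction of the RNA. CASAVA 1.8.2 is named in the submitters' processing notes, and neither aligner, counter, build nor annotation is given in the sources used here. Symbols came from GENCODE M21, which held 42462 of 43432 identifiers. Of the nonzero counts 33.7% were not whole, and counts were rounded. The labels name no molecular identifiers, so depth covers counting error only.

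Counts were tested with edgeR 4.0.16 (R 4.3.3): TMM scaling, filterByExpr over the 14 groups (21113 genes), a robust quasi-likelihood fit with 1 mean per group, and Benjamini-Hochberg adjustment over all genes of a comparison, called under 0.05. Tests are two-sided. Adjusted p-values are from edgeR unless another tool is named. Genotype differences average the female and male differences, and the sex difference averages the 7 genotypes, except in fits without the 13 libraries. No Q175 male is left there, so Q175 is represented by its females alone and gives no sex difference. The Q175 against WT values of those fits are not the differences within females. For C7 the value was 1.52 without the 13 and the 2 libraries, and 1.88 within females without the 2. Levels are CPM computed with TMM-scaled sizes (mean ± SD), and log2 differences carry their SE. Alternatives were DESeq2 1.42.0, limma 3.58.1 (voom with quality weights, and log2 FPKM with 0.1 or 1 added), RLE scaling, no filter, an additive design, a replicate block, the lane code, a transcript length correction, the compared genotypes alone, other forms of the slope, a threshold of 0.01 and leaving out libraries. Refits without 1 library reused the gene filter and the dispersion trend of all libraries. Correlations were tested by permutation (SciPy 1.17.1). The fit was tested on simulated counts.

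The 9 genes, the other lists and the alternatives were chosen with earlier results of these data known. All 9 genes are named in each main comparison, and of the other complement genes at most 8 called ones by smallest p, of which 1 is not reported here. Removing the 13 and the 2 libraries together, and the 53-library correlations, were added after seeing the data.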

Additional observations from a re-analysis of the deposited data

Results flagged for a closer look

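In groups of 4 libraries, 1 library stood apart from the other 3 in 5 of 117 combinations of gene and group, by a gap of log2 CPM over the group's range above 0.829. Chance flags about 1 in 20 groups. C1qa in Q140 male 1 was lowest, at 67.2 CPM against 99.5 to 102 CPM in the rest (gap 0.938). The rest include Q140 male 4, whose sex genes go against its label. C1qc in Q111 male 3 was lowest, at 119 CPM against 170.2 to 179.6 CPM (gap 0.869). C2 in WT male 1 was highest, at 413 CPM against 190.3 to 213 CPM (gap 0.855). C6 in Q20 male 1 was lowest, at 59.6 CPM against 124 to 135 CPM (gap 0.894). Cfb in Q80 male 1 was lowest, at 114 CPM against 214 to 239 CPM (gap 0.852).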

How the results depend on the processing

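Counts of the 9 genes called are given against those of the report. The share of all genes called also changed with the setting, so a changed count is not by itself particular to these genes. For Q175 against WT (0), voom gave 5, FPKM with 0.1 or 1 added 1 each, the fit without the 2 Q140 libraries 1, without the 13 libraries with high epididymal and testicular markers 2, without both 6 and the compared genotypes alone 4. For Q175 against Q20 (1), the lane code, the length correction and the 0.01 threshold gave 0, and the fit without the 2 Q140 libraries, without both and of the compared genotypes alone gave 2. Q20 against WT (0) gave 5 with voom and 1 without both. Q92 and Q111 against Q20 (0) gave 1 with voom, and Q140 against Q20 (0) gave 1 with DESeq2, the additive design and without the 13. The slope (0) gave 2 with DESeq2 and without both, and 1 with voom, both FPKM settings, the additive design, without the 13 and by rank. Voom gave 2 for the sex difference of Q92, 1 for that of the slope, 5 for Q175 against WT in females and 2 in males, where DESeq2 gave 1, and the compared genotypes alone gave 2 in each sex. Leaving out 1 library gave 0 to 1 for Q175 against Q20 and 0 to 2 for the slope. Male against female (6, beside 46.3% of all genes) gave 9 without the 13 (30%) and 9 without both. The cause of these changes was not tested. C6 in Q175 against WT turned to 0.15 without the 13 and 0.21 without both, and C7 in Q140 against Q20 to −0.48 with voom and −0.0046 without Q140 female 1 (leaving out 1 library gave −0.0046 to 2.54). Same-numbered libraries did not vary together (mean correlations of −0.034 to 0.064), so the numbers do not pair them. A replicate block left 6 calls for sex, 1 for Q175 against Q20 (C4b 0.85, adjusted p = 0.0397) and 0 elsewhere.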

Other observations

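The ratio of the C1q chains to each other differed slightly between lines. The ratio of C1qc to C1qa FPKM was 0.725 ± 0.035 in WT (0.672 to 0.771, n = 7), while the means of the 6 knock-in lines lay between 0.801 and 0.823. Single knock-in libraries fell within the WT range, with the lowest at 0.710 in Q140. The ratio of C1qb to C1qa was 0.917 ± 0.039 in WT, and the means of the knock-in lines ran from 0.970 in Q175 to 1.081 in Q92. Here too the libraries overlapped, with WT reaching 0.966 and the lowest values of Q140 and Q175 at 0.913 and 0.917. The WT and Q175 libraries share a block of library numbers, and Q175 had 0.805 for C1qc over C1qa. These ratios were seen in the data and were not tested.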
